A study of Homo sapiens with 9 samples.

Results

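Genes of cholesterol and SREBP-driven lipid synthesis were followed in the human breast cancer line ZR-75-1, whose cells carry the estrogen receptor, after transfection of the microRNA miR-150-5p. The members were 31 genes listed by their known role: the sterol sensor and the transcription factors it controls, the enzymes from acetyl-CoA to cholesterol, the sterol carrier STARD4, and the enzymes of fatty acid synthesis. Of these, 27 had a named probeset and were measured, out of 14884 genes measured in all. FDFT1, LSS, CYP51A1 and SC5D were on the list but had no named probeset here and were not analysed here. The list was made with earlier results of these data known.

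Total RNA of 9 samples was hybridised to 1-colour microarrays (Affymetrix Human Gene 2.0 ST), 3 arrays in each of 3 groups. The mimic group received synthetic mature miR-150-5p at 50 nM with the lipid reagent Lipofectamine RNAiMAX. The negative control group received a non-specific RNA at 50 nM with the same reagent, and the mock group received the reagent without RNA. Cells were grown in medium with fetal bovine serum, and RNA was taken 48 h after transfection. All 9 samples were of the same single cell line. The study's labels do not say whether the 3 arrays of a group came from separate transfections on separate days, so the p-values below measure the spread between these arrays, which may be technical. Each array value is a log2 intensity, so a difference of 1 is a doubling, and the level of one probeset cannot be set against that of another.

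Cells make cholesterol from acetyl-CoA through mevalonate, farnesyl diphosphate, squalene and lanosterol. The membrane-bound transcription factors SREBP-1 and SREBP-2, encoded by SREBF1 and SREBF2, are carried by the escort protein SCAP from the endoplasmic reticulum to the Golgi, where they are cut and set free to enter the nucleus. When sterols are plentiful, the INSIG proteins hold SCAP in the endoplasmic reticulum, and INSIG1 is itself a target gene of the SREBPs. SREBPs act on promoters together with NF-Y, a factor that binds CCAAT boxes, and drive the enzymes of both sterol and fatty acid synthesis.

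The 9 arrays had median values between 4.22 and 4.27, in a table whose values ran from 1.16 to 13.7. The 7 measured luminal breast markers were KRT18, KRT19, EPCAM, GATA3, FOXA1, ESR1 and KRT8. They had mean values of 12.1, 11.2, 10.4, 9.98, 8.86, 8.71 and 6.95 in that order. No detection call says which markers of other cell types were present. Sums over the same probesets were compared between groups only. The 7 measured of 8 luminal markers summed to 9756 to 10393 on the linear intensity scale on the mimic arrays, 9750 to 10142 on the negative control arrays and 9806 to 10467 on the mock arrays. Among them ESR1, the gene of the estrogen receptor, rose in the mimic group by 0.46 ± 0.07 against the negative control (adjusted p = 0.0295) and by 0.45 ± 0.07 against mock (0.0406), with all 3 mimic arrays above all 6 controls. The 3 measured of 5 endothelial markers summed to 29.4 to 36.4 on the mimic arrays, above the 28.2 to 29.0 of the negative control and the 26.9 to 27.7 of mock. Of these, PECAM1, an adhesion molecule of endothelium, lay above all 6 controls and did not pass, at 0.47 against the negative control (adjusted p = 0.301) and 0.59 against mock (0.232). Its mean value of 2.84 was below the lower quartile of all genes, 3.82, and 4.22% of all genes lay above all 6 controls. The other measured endothelial markers, VWF and KDR, differed by 0.03 and 0.03 against the negative control and by 0.01 and 0.14 against mock, with arrays that overlapped. For mimic, negative control and mock in turn, the 4 measured of 5 adipocyte markers summed to 66.0 to 76.1, 65.8 to 67.7 and 68.9 to 69.9. The 3 measured of 6 leukocyte markers summed to 75.3 to 120.8, 92.8 to 103.6 and 96.8 to 144.7 in that order. CD68 made up most of these sums, with a mean value of 6.42 beside 3.33 for CD14 and 3.18 for LYZ. LYZ lay above all 6 controls without passing, at 0.15 against each control (adjusted p = 0.456 and 0.521). CD68 and CD14 differed by -0.08 and -0.11 against the negative control and by -0.44 and -0.07 against mock, with arrays that overlapped. The 2 measured of 6 fibroblast markers summed to 14.9 to 18.6, 15.3 to 18.4 and 18.9 to 21.9. The part of any of these in the results below was not tested. In RNA pooled from a whole culture, a change in every cell and a change in a share of the cells cannot be told apart.

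Promoters are shown because SREBP target genes carry sterol regulatory elements and CCAAT boxes near their start. RefSeq start regions on GRCh38.p14, from 250 bases before to 50 bases after the annotated start, were found for 24 of the 27 measured members. The stretches printed here are the 250 bases before the start, 5′ to 3′ on the strand of the gene. They belong to the members that changed, INSIG1 (chr7:155297628-155297877, plus strand) and PMVK (chr1:154936720-154936969, minus strand), to SREBF2 (chr22:41832855-41833104, plus strand), the only member with the sterol regulatory element searched for, and to MSMO1 (chr4:165327419-165327668, plus strand), which holds 4 CCAAT boxes. Capitals mark a match to CCAAT, which reads ATTGG on the other strand, to the E-box CACGTG or to the sterol regulatory element TCACNCCAC, each searched on both strands.
INSIG1: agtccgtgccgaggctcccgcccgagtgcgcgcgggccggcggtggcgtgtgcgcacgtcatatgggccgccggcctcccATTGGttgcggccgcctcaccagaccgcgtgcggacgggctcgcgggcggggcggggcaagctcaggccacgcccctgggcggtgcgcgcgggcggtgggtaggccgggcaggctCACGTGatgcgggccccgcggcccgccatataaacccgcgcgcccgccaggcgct
PMVK: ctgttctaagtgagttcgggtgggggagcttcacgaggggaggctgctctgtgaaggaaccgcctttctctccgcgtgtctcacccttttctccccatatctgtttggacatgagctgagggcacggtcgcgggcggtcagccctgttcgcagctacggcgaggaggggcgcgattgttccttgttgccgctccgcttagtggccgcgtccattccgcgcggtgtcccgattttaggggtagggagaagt
SREBF2: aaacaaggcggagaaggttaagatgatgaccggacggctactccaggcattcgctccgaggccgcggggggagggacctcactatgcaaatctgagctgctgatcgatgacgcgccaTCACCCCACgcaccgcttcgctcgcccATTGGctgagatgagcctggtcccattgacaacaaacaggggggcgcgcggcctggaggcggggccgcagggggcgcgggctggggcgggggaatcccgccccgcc
MSMO1: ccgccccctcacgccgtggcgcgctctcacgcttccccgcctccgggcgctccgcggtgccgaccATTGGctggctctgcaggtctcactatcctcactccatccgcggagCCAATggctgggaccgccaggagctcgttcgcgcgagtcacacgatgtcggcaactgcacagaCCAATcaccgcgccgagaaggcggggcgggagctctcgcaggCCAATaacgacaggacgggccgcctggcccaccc

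CCAAT was found in a 300-base window of 18 of the 24 members (75%), against 39.7% of all genes with such a window. Those were 27305 genes, measured here or not, and a gene counted where any of its windows held the motif. By role, CCAAT was found for 6 of 6 genes from lanosterol to cholesterol, 5 of 6 from acetyl-CoA to farnesyl diphosphate and 4 of 6 of fatty acid synthesis. It was also found for 2 of 5 sensor and SREBP genes and for STARD4. TCACNCCAC was found for 1 of 24 members, SREBF2 (4.17%), against 1.39% of all genes. It ended 125 bases before the start there, with a CCAAT match ending 102 bases before the start. CACGTG was found for 2 of 24 members, INSIG1 and SCAP (8.33%), against 8.77% of all genes. The INSIG1 stretch held CCAAT on the minus strand 170 to 166 bases before the start and CACGTG 55 to 50 bases before it. The PMVK stretch held none of the 3 motifs. These are matches of letters in a fixed window, and binding was not measured.

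INSIG1 rose and PMVK fell when the mimic arrays were compared with the negative control arrays, and no other of the 27 members passed the test. A gene passed where its p from limma, adjusted by the Benjamini-Hochberg method over all 14884 genes, was under 0.05. Of all genes, 0.202% passed as higher and 0.349% as lower in that comparison, and the members gave 1 of 27 in each direction. Against mock, INSIG1 rose and no member passed as lower, where 0.168% of all genes passed as higher and 0.134% as lower. Against the mean of both controls, the members again gave INSIG1 higher and PMVK lower, with 0.504% and 0.591% of all genes passing in those directions. Between the negative control and mock groups, 0 members and 0 genes of 14884 passed by limma, while 622 genes (4.18%) had an unadjusted p under 0.05. PMVK was among the 2.14% that were higher in the negative control and SCAP among the 2.04% that were lower. Before adjustment, p was under 0.05 for 8 members as higher and 2 as lower against the negative control, where 6.18% and 6.39% of all genes were. Against mock the members gave 6 and 1, where 5.87% and 4.84% of all genes did, and against the mean of both controls 9 and 2, where 7.05% and 6.48% did. The comparisons share arrays, so their values stand side by side and are not independent of each other.

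**Figure D1:**
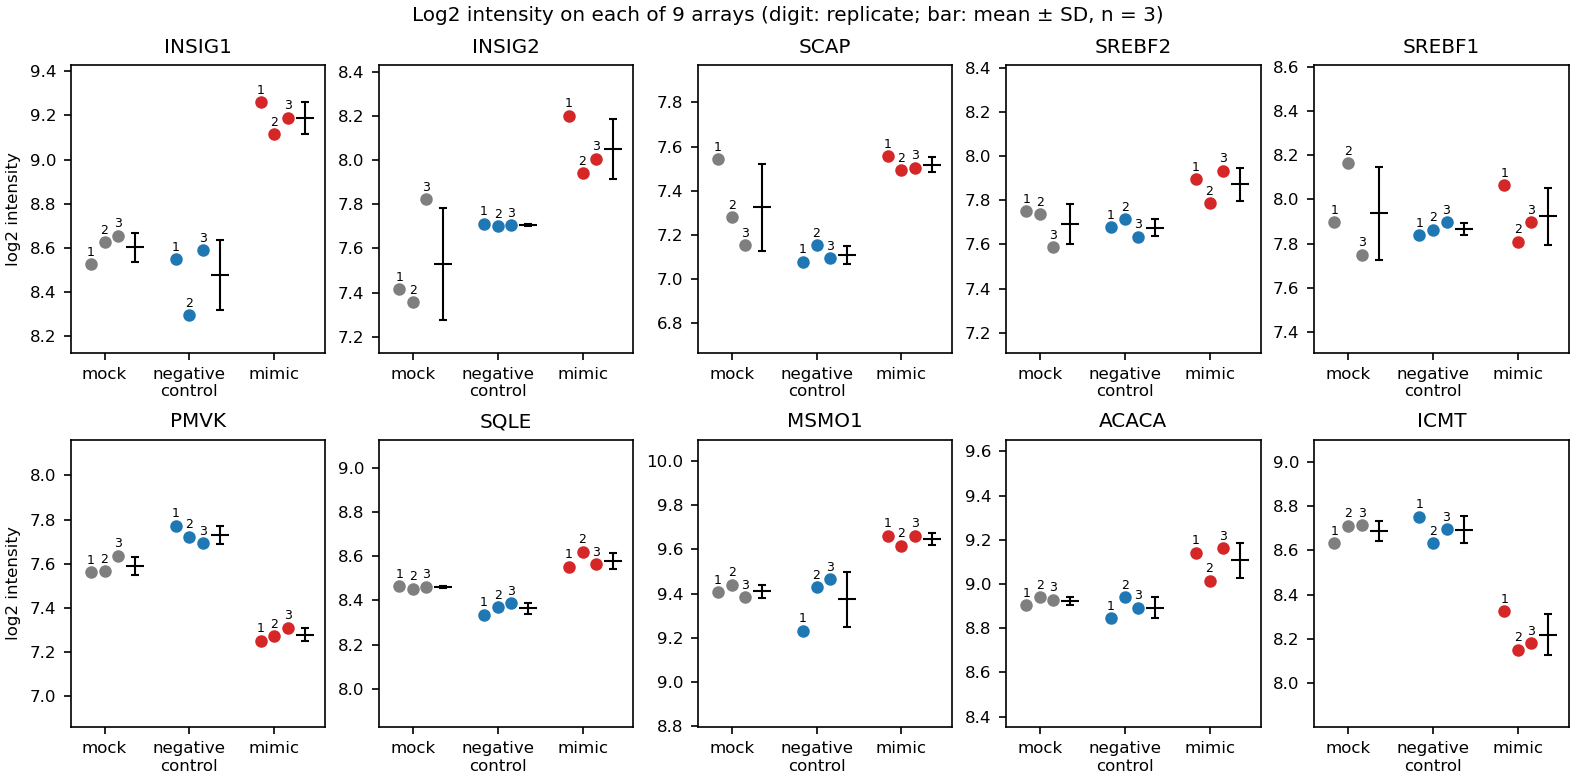
Log2 intensity on each of the 9 arrays for 9 members and ICMT, with mock, negative control and mimic arrays in grey, blue and red, the digit giving the replicate and the bar the mean ± SD (n = 3). The 3 mimic arrays lie above all 6 control arrays for INSIG1 and below all 6 for PMVK and ICMT, while those for SREBF1 lie among the controls.

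INSIG1, the sterol-responsive retention protein of the SCAP-SREBP complex, showed the largest change among the members. Its values were 9.26, 9.12 and 9.19 on the mimic arrays. They were 8.55, 8.30 and 8.59 on the negative control arrays and 8.53, 8.63 and 8.66 on the mock arrays. All 3 mimic arrays lay above all 6 control arrays, and the control groups overlapped each other. The log2 change against the negative control was 0.71 ± 0.09 (SE, 95% interval 0.51 to 0.91), a 1.64-fold rise with an adjusted p of 0.0172. Against mock it was 0.59 ± 0.09 (0.38 to 0.79), 1.5-fold, with an adjusted p of 0.0406. The negative control and mock groups differed by -0.12 ± 0.09 (adjusted p = 0.976). Set against the mean of both controls, INSIG1 rose by 0.65 ± 0.08 (0.47 to 0.82), 1.57-fold, with an adjusted p of 0.00887, and it passed in 16 of 16 alternative settings of that comparison. With single arrays left out, the rise stayed at 0.62 to 0.77 against the negative control and 0.55 to 0.62 against mock. Whether INSIG1 passed against each control alone did depend on single arrays. Without any 1 of the negative control or mimic arrays, the adjusted p against the negative control lay between 0.0514 and 0.069. Against mock it rose past the threshold without any 1 array other than negative control replicate 2 and reached 0.178 without mock replicate 1.

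INSIG2, the second INSIG protein, which is not itself driven by SREBPs in most cells, was measured at 8.20, 7.94 and 8.01 on the mimic arrays. Its values were 7.71, 7.70 and 7.71 on the negative control arrays and 7.41, 7.36 and 7.82 on the mock arrays. All mimic values lay above all control values, and mock replicate 3 stood well above the other mock arrays. INSIG2 did not pass: the change was 0.34 ± 0.12 against the negative control (adjusted p = 0.288), 0.52 ± 0.12 against mock (0.159) and 0.43 ± 0.11 against the mean of both controls (0.104). Without mock replicate 3 the adjusted p against both controls was 0.0287, and without any other single array it was 0.147 to 0.241.

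SCAP, the sterol-sensing escort of the SREBPs, gave 7.56, 7.49 and 7.50 on the mimic arrays, 7.08, 7.15 and 7.09 on the negative control arrays, and 7.54, 7.28 and 7.15 on the mock arrays. The mimic arrays lay above every negative control array but overlapped mock replicate 1. The change was 0.41 ± 0.10 (95% interval 0.20 to 0.62) against the negative control, with an adjusted p of 0.104, and 0.19 against mock, with an adjusted p of 0.517. With a filter that left out dim genes, SCAP passed against the negative control (adjusted p = 0.0386). SCAP also differed between the controls by -0.22 ± 0.10, with an unadjusted limma p of 0.0486, so the larger difference was against the control that was itself lower.

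The genes of the transcription factors themselves did not pass in any comparison. SREBF1, which encodes SREBP-1, gave 8.06, 7.81 and 7.90 on the mimic arrays, 7.84, 7.86 and 7.90 on the negative control arrays, and 7.90, 8.16 and 7.75 on the mock arrays. The 3 groups overlapped, and the changes were 0.06 against the negative control and -0.01 against mock. SREBF2, which encodes SREBP-2, the main factor of cholesterol synthesis, gave 7.89, 7.79 and 7.93 on the mimic arrays. Its control values ran from 7.59 to 7.75, all below the mimic arrays. The SREBF2 change was 0.19 ± 0.07 against the negative control (adjusted p = 0.322) and 0.18 against mock (0.437). The array measures the mRNA only, not the cleaved protein that enters the nucleus.

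Of the 7 measured genes from acetyl-CoA to farnesyl diphosphate, 1 fell and none rose. This was PMVK, phosphomevalonate kinase, which turns phosphomevalonate into diphosphomevalonate. PMVK was measured at 7.25, 7.27 and 7.31 on the mimic arrays. Its values were 7.77, 7.72 and 7.69 on the negative control arrays and 7.56, 7.57 and 7.64 on the mock arrays. The 3 groups did not overlap: mimic was lowest, mock in the middle and the negative control highest. PMVK fell by 0.45 ± 0.06 on the log2 scale against the negative control (95% interval -0.59 to -0.31), 1.37-fold, with an adjusted p of 0.020. Against mock the difference was -0.31 ± 0.06 (-0.45 to -0.17) and did not pass, with an adjusted p of 0.108. The negative control lay above mock by 0.14 ± 0.06, with an unadjusted limma p of 0.0492 and an adjusted p of 0.976. Against the mean of both controls, PMVK fell by 0.38 ± 0.05 (-0.50 to -0.26), 1.30-fold, with an adjusted p of 0.0174. That call was lost without negative control replicate 2 (adjusted p = 0.0541), mimic replicate 1 (0.0542) or mimic replicate 2 (0.0676). The call against the negative control was lost without any 1 negative control array (0.0808 to 0.0916), mimic replicate 1 (0.0601) or mimic replicate 2 (0.0793).

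The steps beside PMVK gave smaller values. MVK, mevalonate kinase, which acts just before it, differed by 0.15 against the negative control and 0.13 against mock. MVD, the decarboxylase just after it, differed by 0.10 and -0.08. HMGCS1, the synthase that makes HMG-CoA, differed by 0.16 and 0.19, and its 3 mimic arrays (7.59, 7.69 and 7.58) lay above all 6 control arrays, the highest of which was 7.51. IDI1, which isomerises isopentenyl diphosphate, differed by 0.17 ± 0.06 and 0.14 ± 0.06, and its mimic values of 7.64 to 7.67 also lay above all control values, which ended at 7.54. For ACAT2, the acetyl-CoA thiolase, the differences were 0.08 and 0.22, and for FDPS, farnesyl diphosphate synthase, 0.00 and 0.09. A second FDPS probeset gave 0.04 and -0.03. None of these 6 genes passed.

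SQLE, squalene epoxidase, was the only gene measured between squalene and lanosterol. It gave 8.55, 8.62 and 8.56 on the mimic arrays, 8.33, 8.37 and 8.39 on the negative control arrays, and 8.46, 8.45 and 8.46 on the mock arrays. The 3 groups did not overlap, with mimic highest and the negative control lowest. SQLE did not pass, with a change of 0.22 ± 0.06 against the negative control (adjusted p = 0.174) and 0.12 against mock (0.525).

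None of the 6 measured genes from lanosterol to cholesterol passed. MSMO1, the sterol methyl oxidase whose promoter stretch holds 4 CCAAT boxes, gave 9.66, 9.62 and 9.66 on the mimic arrays. It gave 9.23, 9.43 and 9.46 on the negative control arrays and 9.41, 9.44 and 9.38 on the mock arrays, so the mimic arrays lay above all 6 controls. The MSMO1 change was 0.27 ± 0.08 against the negative control (adjusted p = 0.172), 0.24 ± 0.08 against mock (0.296) and 0.26 ± 0.07 against the mean of both (0.118). NSDHL, a sterol dehydrogenase of the same demethylation, differed by 0.10 in both comparisons. Its mimic arrays also lay above all controls, but only just, with a lowest mimic value of 8.163 and a highest control value of 8.160. DHCR7, the reductase of the last step, differed by 0.24 and 0.17, with groups that overlapped. For EBP, a sterol isomerase, the differences were 0.06 and 0.08, and for HSD17B7, a ketosteroid reductase, -0.09 and 0.14. TM7SF2, a sterol reductase, differed by -0.10 and -0.14.

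STARD4, a soluble carrier that moves cholesterol between membranes, lay at the low side in the mimic group without passing. Its values were 6.84, 7.07 and 6.90 on the mimic arrays, 7.45, 7.11 and 7.31 on the negative control arrays, and 7.04, 7.02 and 7.50 on the mock arrays. The mimic arrays lay below every negative control array and overlapped the mock arrays. The STARD4 difference was -0.35 ± 0.14 against the negative control (adjusted p = 0.354) and -0.25 against mock (0.571).

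None of the 7 genes of fatty acid synthesis passed. ACACA, acetyl-CoA carboxylase, which makes malonyl-CoA, had the lowest p in this group. It gave 9.14, 9.01 and 9.16 on the mimic arrays, 8.84, 8.94 and 8.89 on the negative control arrays, and 8.90, 8.94 and 8.93 on the mock arrays, with the mimic arrays above all 6 controls. The ACACA change was 0.21 ± 0.07 against the negative control (adjusted p = 0.234) and 0.18 ± 0.07 against mock (0.378). ACLY, which supplies cytosolic acetyl-CoA, differed by 0.08 and 0.03, and FASN, fatty acid synthase, by 0.10 and 0.01. SCD, which introduces the double bond of oleate, differed by 0.01 and -0.10, and its second probeset by 0.11 and 0.03. ELOVL6, an elongase of saturated chains, differed by -0.28 and -0.18. The desaturases FADS1 and FADS2 differed by 0.06 and 0.04 and by -0.07 and -0.11.

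**Figure D2:**
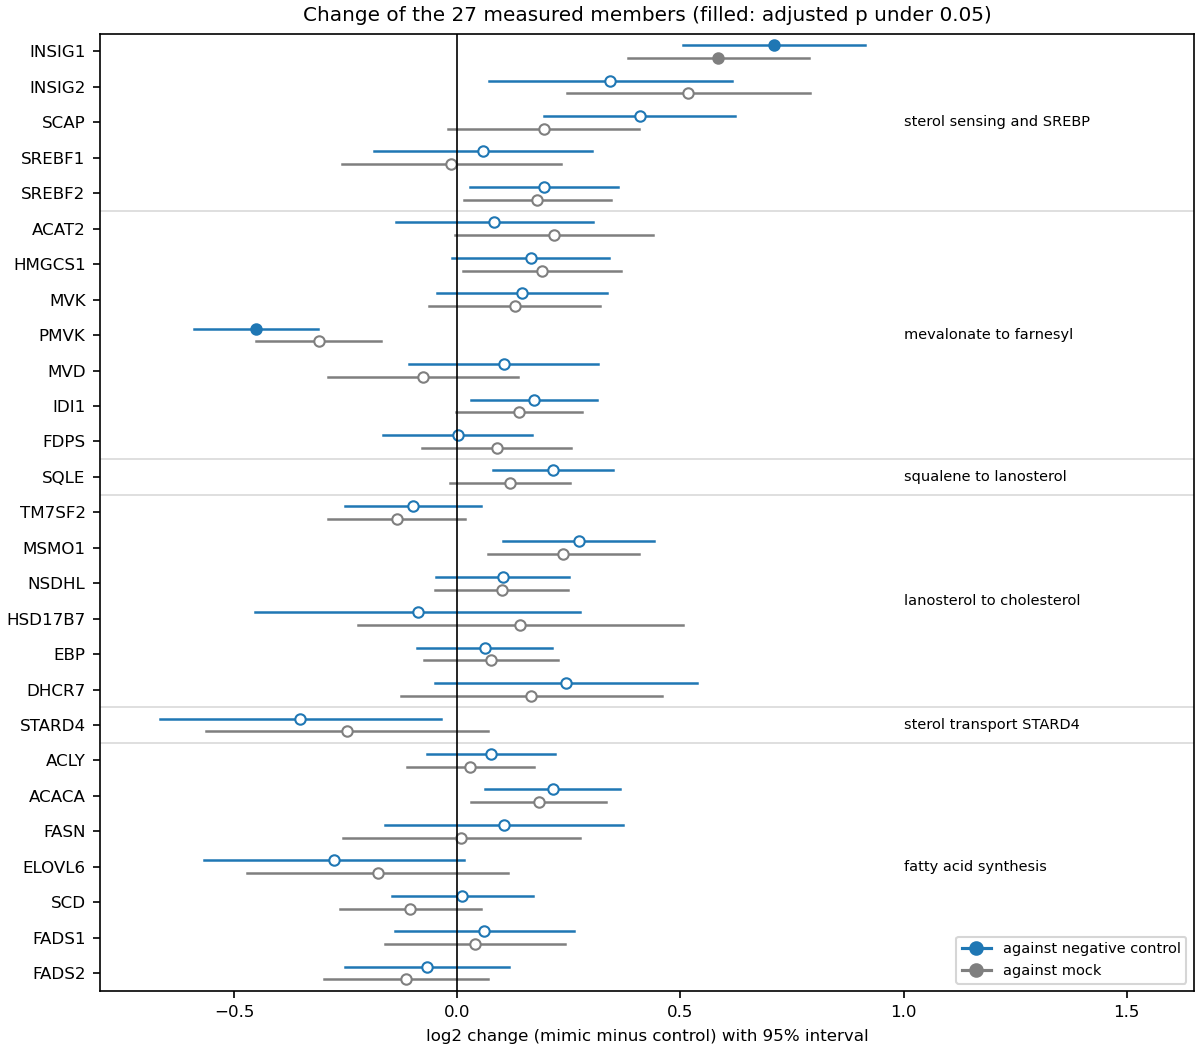
Log2 change of the 27 measured members in pathway order, mimic minus negative control and mimic minus mock, with 95% intervals and filled points where the adjusted p was under 0.05. INSIG1 lies furthest to the right at 0.71 and 0.59, PMVK lies furthest to the left at -0.45 against the negative control, and most other members lie between 0 and 0.3.

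The members, INSIG1 and PMVK among them, were chosen with earlier results of these data known, so the counts here are a description and not a test. Read as a set, 21 of 27 members had a change above 0 against the negative control, where 53.4% of all genes did, and 19 of 27 against mock, where 53.9% did. The median change of the members was 0.10 in both comparisons, against 0.01 over all genes. Between the negative control and mock groups, 9 of 27 members lay above 0, where 52.8% of all genes did, and the median was -0.03. There, PMVK lay above without overlap, as did 4.77% of all genes, and SCAP and SQLE lay below, as did 3.33%. The 3 mimic arrays lay above all 3 negative control arrays for 10 of 27 members, where this held for 8.42% of all genes, and below them for 3 (PMVK, TM7SF2 and STARD4), where it held for 8.01%. Against mock, 9 of 27 members lay above without overlap, where 7.21% of all genes did, and PMVK alone lay below, where 5.44% did. Above all 6 control arrays lay INSIG1, INSIG2, SREBF2, HMGCS1, IDI1, SQLE, MSMO1, NSDHL and ACACA, 9 of 27 where 4.22% of all genes did so. Below all 6 lay PMVK, 1 of 27 where 3.46% of all genes did. Of those 9 members, 8 had a promoter window and 7 of these held CCAAT there, as did 11 of the 16 other members with a window and 39.7% of all genes with one. The 9 were picked by these same mimic arrays, the counts are small, and a difference between the 2 sets was not tested.

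Among the 4 roles with 5 or more measured genes, the median change was highest for the sensor and SREBP genes and lowest for fatty acid synthesis in both comparisons. For the 5 sensor and SREBP genes the median was 0.34 against the negative control and 0.19 against mock. It was 0.10 and 0.13 for the 7 genes from acetyl-CoA to farnesyl diphosphate, 0.08 and 0.12 for the 6 genes from lanosterol to cholesterol, and 0.06 and 0.01 for the 7 genes of fatty acid synthesis. Differences between these role groups were not tested.

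**Figure D3:**
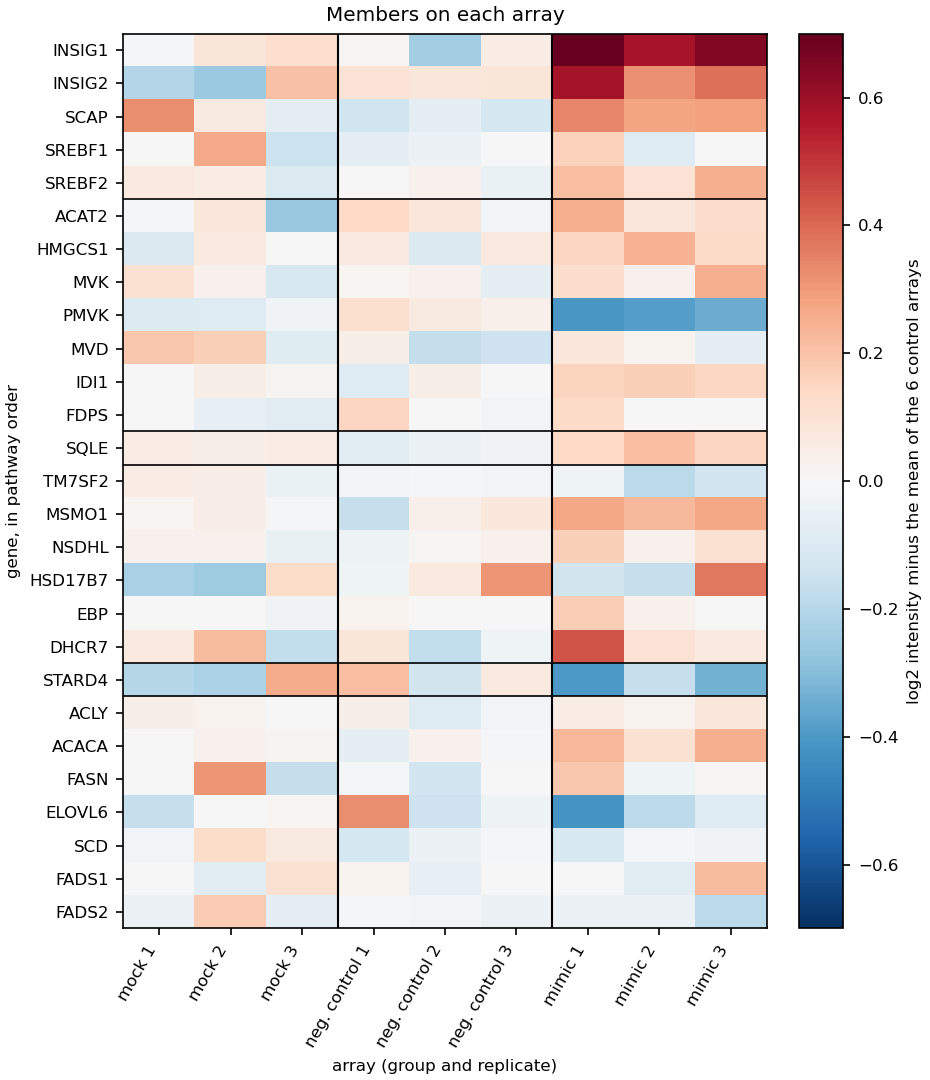
Log2 intensity of each member minus its mean over the 6 control arrays, with genes in pathway order down the side and the 9 arrays along the bottom. INSIG1 is the strongest row in the mimic columns and PMVK the clearest opposite row, and mimic replicate 2 is paler than mimic replicates 1 and 3.

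The mimic arrays differed among themselves in the size of this shift. The median deviation of the members from the control mean was 0.15 on mimic replicate 1, 0.03 on replicate 2 and 0.10 on replicate 3, with 20, 16 and 19 of 27 members above the control mean. Over all 14884 genes the medians on these arrays were -0.0023, 0.0025 and 0.0268, with 7316, 7614 and 8657 genes above it. On the control arrays the members' median deviation ran from -0.02 to 0.04. Mock replicate 2 had 20 of 27 members above the control mean, where 7080 of the 14884 genes were. Mimic replicate 2 and mock replicate 3 each correlated, over all genes, slightly more with arrays of other groups than with their own, at 0.9941 against 0.9940 and 0.9937 against 0.9935. INSIG1 and PMVK kept their separation on every mimic array. Of the 27 members, 15 had the same deposited value on 2 or more arrays, as did 57.1% of all genes. INSIG1, PMVK, SQLE and MSMO1 were not among them, but HMGCS1, IDI1, NSDHL and ACACA, which lay above all 6 controls, were.

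Over the 9 arrays, the members whose values followed those of INSIG1 most closely by Pearson correlation were SQLE (0.871), ACACA (0.865) and MSMO1 (0.838), and PMVK ran opposite (-0.934). Among all 14884 genes, the patterns most like that of INSIG1 were those of MIR604, HECTD4, GPC6, SESN3 and ESR1, at 0.961 to 0.977. Those most like PMVK were PEG10, KCTD20, LIMCH1, SLC49A4 and GALNT6, at 0.970 to 0.982. These correlations describe 9 arrays in 3 groups, so the step between the groups carries much of each, and they were not tested.

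A wider list of 76 genes around the pathway had 39 measured members, of which 1 fell and none rose in each comparison of mimic with a control. It was ICMT, the methyltransferase that finishes prenylated proteins made with farnesyl and geranylgeranyl diphosphate. ICMT was measured at 8.32, 8.15 and 8.18 on the mimic arrays, 8.75, 8.63 and 8.70 on the negative control arrays, and 8.63, 8.71 and 8.72 on the mock arrays. All mimic arrays lay below all controls, and the control groups overlapped. ICMT fell by 0.48 ± 0.07 against the negative control (95% interval -0.64 to -0.31), 1.39-fold, with an adjusted p of 0.0313. Against mock it fell by 0.47 ± 0.07, with an adjusted p of 0.0406, and the controls differed by 0.01. The call against the mean of both controls (adjusted p = 0.0128) was lost without mimic replicate 2, at 0.0676. Against each control alone it was lost without 8 and 9 of the 9 arrays in turn, with an adjusted p of up to 0.136 against the negative control and 0.153 against mock.

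None of the other 38 genes passed. Before adjustment, p was under 0.05 against the negative control for 7 of the 39 as higher and 5 as lower, where 6.18% and 6.39% of all genes were. Of the 3 measured other synthesis enzymes, FAXDC2, related to the sterol methyl oxidases, had the lowest p against the mean of both controls, with a change of 0.21 (adjusted p = 0.362). Of 9 measured genes of SREBP processing and sterol-driven protein breakdown, FAF2, a cofactor of endoplasmic reticulum degradation, differed by 0.23 ± 0.06 (adjusted p = 0.128). ERLIN1, a membrane protein of the same machinery, differed by -0.58 ± 0.13 against the negative control (adjusted p = 0.0963) and by -0.25 against mock (0.541), while the controls differed from each other by 0.33. Of 8 measured genes of sterol uptake and transport, VLDLR, a lipoprotein receptor, had the lowest p and differed by -0.30 (adjusted p = 0.240). Of 4 measured genes of the sterol efflux program driven by LXR, APOE, the apolipoprotein, differed by 0.26 (adjusted p = 0.328). Of 10 measured other SREBP-driven lipid genes, ELOVL5, an elongase of unsaturated chains, had the lowest p and differed by 0.17 (adjusted p = 0.221). The changes of these 10 genes went in both directions, from -0.25 to 0.43, with a median of 0.13.

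**Figure D4:**
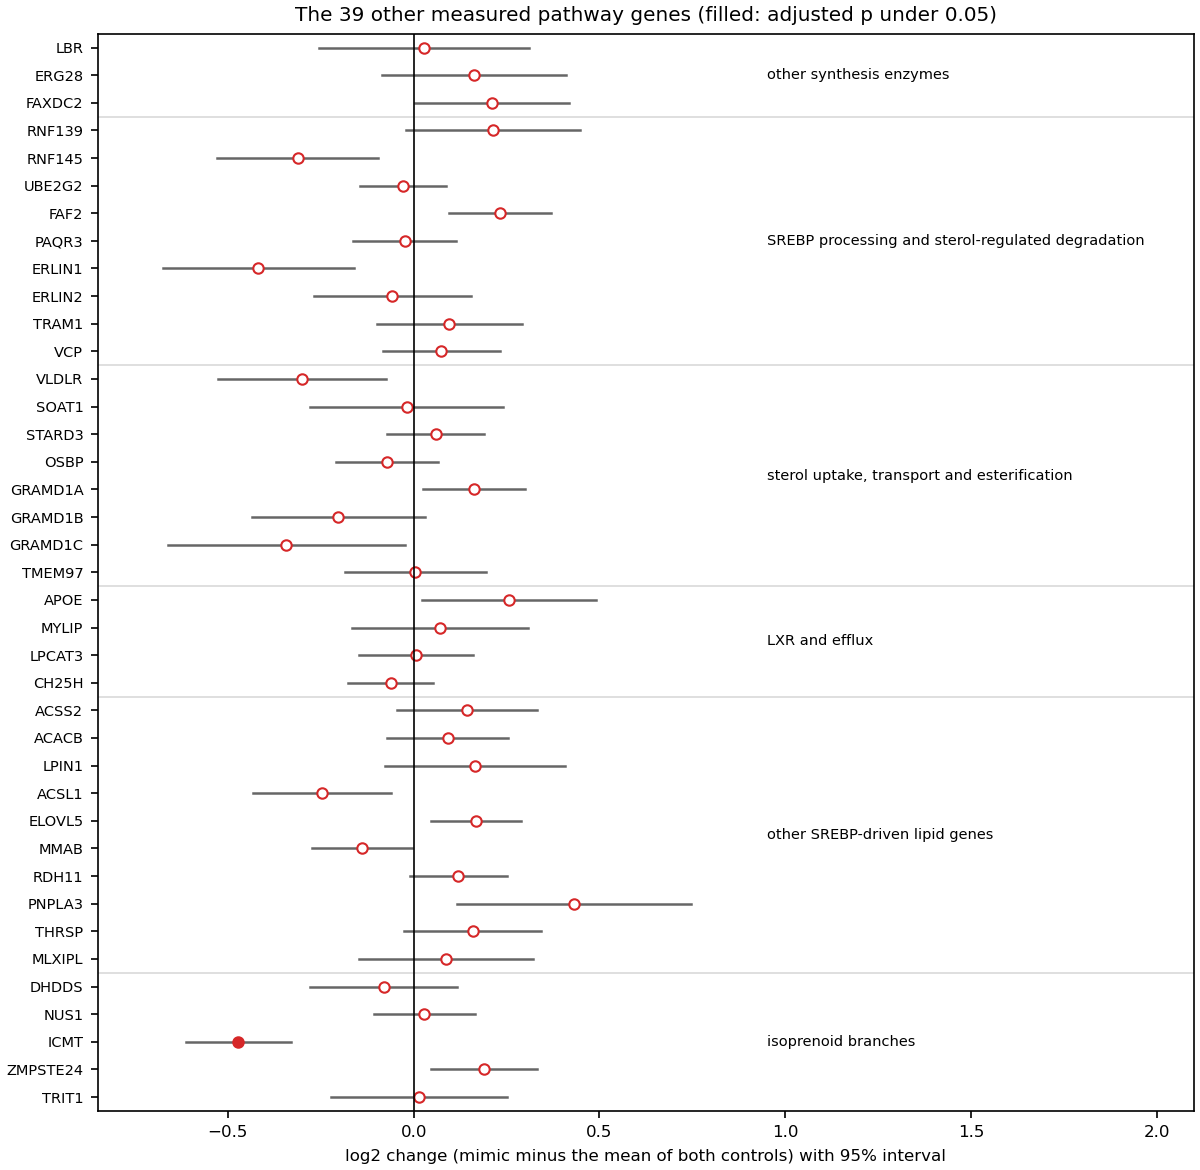
Log2 change, mimic minus the mean of both controls, of the 39 other measured pathway genes by list, with 95% intervals and filled points where the adjusted p was under 0.05. ICMT at -0.47 is the only filled point.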

How the data were processed

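The values analysed were the authors' deposited log2 intensities, for which the submitters' processing notes name RMA, a method that corrects background, normalizes between arrays and sums up the probes of a probeset. The software version, annotation and genome build were not given in the sources used here. Of 53617 probesets, 16098 had a gene symbol in the platform annotation and 37519 had none. Where a gene had several probesets, as 779 genes did, the one with the highest mean over 9 arrays was used, which left 14884 genes. Arrays were grouped by the transfection named in the labels. A single limma fit (version 3.58.1, R 4.3.3) over the 3 groups, moderated by empirical Bayes, gave each contrast, with Benjamini-Hochberg adjustment across the 14884 genes. The test was checked on simulated arrays with independent noise and planted changes larger than most member changes here. That check does not cover smaller changes or repeated values. The deposited values carry no detection call, so a low value cannot be told from background, and 3 arrays a group limit the precision. Per-array values are given for members that passed, for the members with the lowest p against each control in each role of 3 or more, and for SREBF1, SREBF2, SCAP and INSIG2. STARD4, the mimic values of HMGCS1 and IDI1 and the 2 NSDHL values were added after their values were seen. In the wider lists, genes that passed were named, or else the gene with the lowest p against both controls, and ERLIN1 was added likewise. The members and lists were chosen with earlier results of these data known. Alternatives changed the normalization, the filter, the probeset rule, the variance model and the arrays included. Promoter windows came from RefSeq.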

Additional observations from a re-analysis of the deposited data

How the results depend on the processing

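Every sign of INSIG1, PMVK and ICMT in the mimic comparisons held under all alternatives. Against the negative control INSIG1 passed in 10 of 17 alternatives, PMVK in 10 and ICMT in 7, and against mock in 5, 2 and 6. Called genes numbered 82 against the negative control, 45 against mock and 163 against both. Against the negative control they numbered 8 with only the arrays compared, 263 with a filter on dim genes, 181 with an intensity trend and 268 with array weights, and members numbered 0 with only the arrays compared and 3 with the filter (INSIG1, SCAP and PMVK). Against mock they numbered 1, 102 and 78 under the first 3 of these, and members 0, 2 and 2, with 0 under quantile normalization or array weights. Against both they numbered 348 with the filter (with INSIG1, INSIG2, PMVK and MSMO1, 4 members) and 245 with the trend.
The replicate numbers were not treated as pairs, since the labels do not say that they mark pairs. Correlations of deviations from the group means ran from -0.061 to 0.133 for same-numbered arrays of different groups. For differently numbered arrays they ran from -0.177 to 0.161, and pairing was not tested. With the replicate block the counts were 16, 3 and 95, with 1 member against the negative control (INSIG1, adjusted p = 0.0483) and 0 against mock. Quantile normalization turned the 25 higher and 20 lower calls against mock into 17 and 22.

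Leaving out each array in turn gave 7 to 121 calls against the negative control, 1 to 10 against mock and 31 to 102 against both, with 0 to 2, 0 to 1 and 1 to 3 members. The members' median between controls ran from -0.0479 to 0.0116. Signs were followed for all 27 members against each control, but between controls and against both only for ICMT and 9 members, so the other 18 were not run there. Within these, the following turned. Under quantile normalization these were FDPS against the negative control (-0.012), SCD against mock (0.0249), ICMT between controls (-0.0248) and SREBF1 against both (-0.0024). Under array weights they were FASN (-0.0543) and FADS1 (-0.0001) against mock and SREBF1 against both (-0.0417). With arrays left out, against the negative control, SREBF1 ran from -0.0131 to 0.115, FDPS from -0.0421 to 0.0556, HSD17B7 from -0.26 to 0.0084, SCD from -0.0215 to 0.0416 and FADS1 from -0.0243 to 0.122. Against mock, SREBF1 ran from -0.107 to 0.101, HSD17B7 from -0.0304 to 0.264, FASN from -0.0983 to 0.14 and FADS1 from -0.0448 to 0.102. Between controls, SREBF1 ran from -0.164 to 0.0429, SREBF2 from -0.0669 to 0.0146, MSMO1 from -0.0796 to 0.0365 and ICMT from -0.0224 to 0.0369, and against both SREBF1 ran from -0.0486 to 0.0792. The causes were not tested.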
